A study of Homo sapiens with 6 samples.

Results

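Luciferases-expressing HepG2 cells gave 6 RNA-seq libraries, which were divided into 2 sides of 3 by the share of counts on the mitochondrial chromosome. The sides were chosen on measured values of these same libraries: control 3, sedanolide 1 and sedanolide 2 carried over 4% of their counts on MT- genes (the high-share libraries), and control 1, control 2 and sedanolide 3 carried under 2.5% (the low-share libraries). Each side held 3 of the 6 libraries and mixed both treatments, so that the difference between sides could be fitted with treatment as a covariate. It was described over 11993 nuclear protein-coding genes with enough counts, of 19954 in the table. Because the libraries were grouped by their own values, the difference between sides is given as a fitted log2 difference with its standard error (SE) and as values per library, without a test.

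HepG2 is a human hepatoblastoma line. The cells carried the multi-integrase mouse artificial chromosome vector with luciferase reporters, red SLR3 behind antioxidant response elements and green ELuc as the internal control, and all 6 libraries came from these cells. Sedanolide libraries came from cells given 100 μM sedanolide for 24 h, and control libraries carried the label control, with 3 libraries each. The labels gave no culture, extraction or sequencing date for any library, and did not say whether replicates were separate cultures.

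Mitochondria keep their own small chromosome, which encodes 13 respiratory chain proteins and the 2 ribosomal RNAs of the mitochondrial ribosome, and every other mitochondrial protein is made from nuclear genes and imported. Respiratory complexes I, III, IV and V are built from subunits of both genomes, whereas complex II is wholly nuclear. In the liver, transcripts for secreted plasma proteins, complement and matrix are translated at the endoplasmic reticulum (ER), while the proteasome, chaperonins, aminoacyl-tRNA synthetases and ribosome assembly factors are soluble or nucleolar machinery used by every cell.

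The genes whose coding starts are shown here illustrate a pattern described below, which most genes called lower did not have. Each line gives the first 40 codons (120 coding bases, 5′ to 3′) of the annotated canonical transcript on GRCh38, with capitals marking a T at the middle position of a codon, which is the codon class of phenylalanine, leucine, isoleucine, methionine and valine. These 6 genes were picked after their values were seen.

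Of the genes lower in the high-share libraries, PDIA4 (chr7:149021116-149028408, minus strand), PTPRS (chr19:5274316-5286140, minus strand) and C3 (chr19:6719358-6720589, minus strand) are shown, each with its bases spread over 2 coding exons.
PDIA4: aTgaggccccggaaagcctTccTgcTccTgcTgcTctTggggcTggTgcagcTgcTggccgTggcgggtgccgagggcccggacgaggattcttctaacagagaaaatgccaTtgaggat
PTPRS: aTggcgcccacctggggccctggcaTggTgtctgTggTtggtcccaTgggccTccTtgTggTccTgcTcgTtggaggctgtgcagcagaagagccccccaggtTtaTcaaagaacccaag
C3: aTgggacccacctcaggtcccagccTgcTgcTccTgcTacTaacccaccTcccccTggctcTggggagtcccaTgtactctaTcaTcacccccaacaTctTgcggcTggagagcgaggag
Of the genes higher in the high-share libraries, NDUFV1 (chr11:67607005-67608443, plus strand, 2 coding exons), NDUFS6 (chr5:1801418-1801537, plus strand, 1 coding exon) and PSMG1 (chr21:39183266-39183385, minus strand, 1 coding exon) are shown.
NDUFV1: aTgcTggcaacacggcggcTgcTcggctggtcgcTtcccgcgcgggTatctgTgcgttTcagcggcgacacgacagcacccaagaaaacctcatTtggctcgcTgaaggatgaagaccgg
NDUFS6: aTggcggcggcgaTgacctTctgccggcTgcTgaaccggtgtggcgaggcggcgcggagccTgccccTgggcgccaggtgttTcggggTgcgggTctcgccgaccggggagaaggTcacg
PSMG1: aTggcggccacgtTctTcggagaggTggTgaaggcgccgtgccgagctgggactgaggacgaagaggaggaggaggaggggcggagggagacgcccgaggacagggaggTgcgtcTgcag
In any 15 neighbouring codons among the 40 after the start codon, the largest number with a middle T was 12 in PDIA4, 11 in PTPRS and 9 in C3, against 6 in NDUFV1, 5 in NDUFS6 and 4 in PSMG1.

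The share of counts on MT- genes was 2.15% in control 1, 1.43% in control 2 and 1.90% in sedanolide 3, and 4.23% in control 3, 5.22% in sedanolide 1 and 5.05% in sedanolide 2. Control 1 lay nearest below the division and control 3 nearest above it. These values made the division and are given as its description. Totals ranged from 16420258 counts (control 1) to 26714853 counts (sedanolide 2), and high-share and low-share libraries overlapped in depth.

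The mitochondrial ribosomal RNAs, MT-RNR1 and MT-RNR2, made up 0.557%, 0.330% and 0.401% of counts in control 1, control 2 and sedanolide 3 and 1.42%, 2.01% and 1.40% in control 3, sedanolide 1 and sedanolide 2. The library kit selected mRNA from total RNA. Throughout, values of the low-share libraries are listed in the order control 1, control 2, sedanolide 3, and those of the high-share libraries in the order control 3, sedanolide 1, sedanolide 2. CPM is the usual counts-per-library-total unit after trimmed mean of M values (TMM) scaling, and log2 differences are high-share against low-share libraries with treatment held constant, written as the difference ± SE (n = 3 libraries a side).

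**Figure D1:**
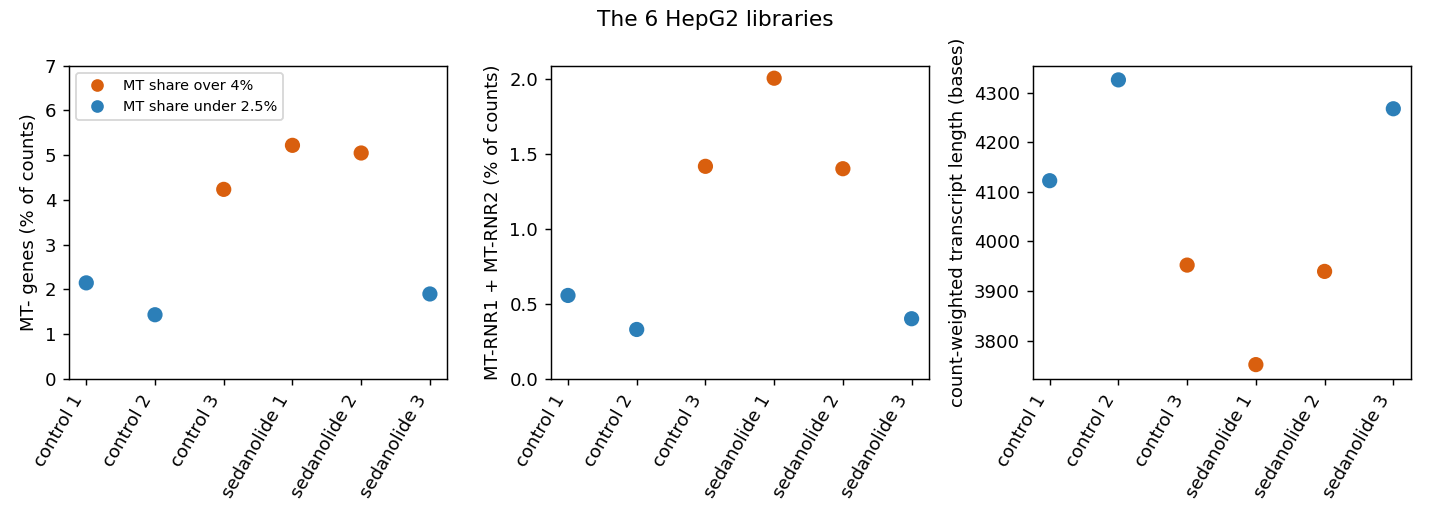
Share of counts on MT- genes (%), share on MT-RNR1 and MT-RNR2 (%) and count-weighted mean transcript length (bases) in each of the 6 libraries, 1 point per library, coloured by side. The high-share libraries lie between 4.23% and 5.22% of counts on MT- genes and have the 3 shortest mean transcript lengths, from 3752 to 3952 bases against 4122 to 4325 bases.

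All 13 mitochondrial protein genes had positive differences, from 0.52 (MT-ND4) to 1.80 (MT-ND6), and for 12 of the 13 the sides did not overlap. MT-CO1, the catalytic core of complex IV, stood at 6216, 3509 and 4839 CPM in the low-share and 10668, 12252 and 14232 CPM in the high-share libraries. Its difference was 1.29 ± 0.21. MT-ND4L, a complex I subunit, was the exception to the separation, with 289, 279.7 and 317 CPM in the low-share and 316, 568 and 642 CPM in the high-share libraries. Control 3 lay at 316 CPM there, just under sedanolide 3 at 317 CPM. The ribosomal RNAs had differences of 1.96 ± 0.28 for MT-RNR1 and 1.89 ± 0.23 for MT-RNR2. Because MT- genes set the sides, these values describe the division. Of the luciferase reporters, ELuc had a difference of 0.23 ± 0.16. SLR3 stood at 16.2, 14.6 and 18.0 CPM in control 1 to 3 and 69.6, 68.8 and 59.4 CPM in sedanolide 1 to 3, and its difference was 0.23 ± 0.09. Within each treatment the high-share libraries lay above the low-share ones for SLR3.

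Among nuclear transcripts kept in the nucleus, the long noncoding RNA MALAT1 stood at 96.7, 66.1 and 87.5 CPM in the low-share and 252, 360.0 and 337 CPM in the high-share libraries. Every high-share library exceeded every low-share library, and the difference was 1.81 ± 0.16. NEAT1, the scaffold of paraspeckles and the neighbour of MALAT1 on chromosome 11, overlapped between the sides, with a difference of -0.12 ± 0.14.

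Over the nuclear protein-coding genes, 642 of 11993 (5.35%) were at least 1.5-fold higher in the high-share libraries with no overlap between the sides, and 1035 (8.63%) were at least 1.5-fold lower with no overlap. These 2 shares are the background for list counts from this fit. A gene that met both conditions is called higher or lower in what follows. Counts after a correction for GC content and length are read against 531 higher and 835 lower of the 11993 genes. Counts in the deposited TPM values are read against 182 higher and 1073 lower of 10071. Without the fold, the high-share libraries were all above the low-share libraries for 2988 genes (24.9%) and all below for 2500 (20.8%). The median difference was 0.04 and the middle 50% of genes lay between -0.26 and 0.29, with the lowest 5% below -0.81 and the highest 5% above 0.64. In the deposited log2(TPM + 1) table the balance moved, since 182 genes were called higher and 1073 lower of 10071, which puts 14.5% of calls on the higher side against 38.3% in the counts. There the median of all genes was -0.09, and -0.10 with a pseudocount of 0.1.

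The difference was read separately within each treatment, control 3 against control 1 and 2, and sedanolide 1 and 2 against sedanolide 3, which share no library. Across the 11993 genes the 2 sets of differences had the same sign for 85.5% of genes and correlated at Pearson r = 0.73 and Spearman rho = 0.83. This is a description across genes, which are not independent replicates, and which share base composition and length across both sets. Of the 1677 called genes, 1158 (69.1%) passed 1.5-fold within both treatments. A call requires no overlap between sides, which fixes the same direction within both treatments, so that only the size was free for these genes. The median absolute difference was 0.25 within control and 0.32 within sedanolide.

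**Figure D2:**
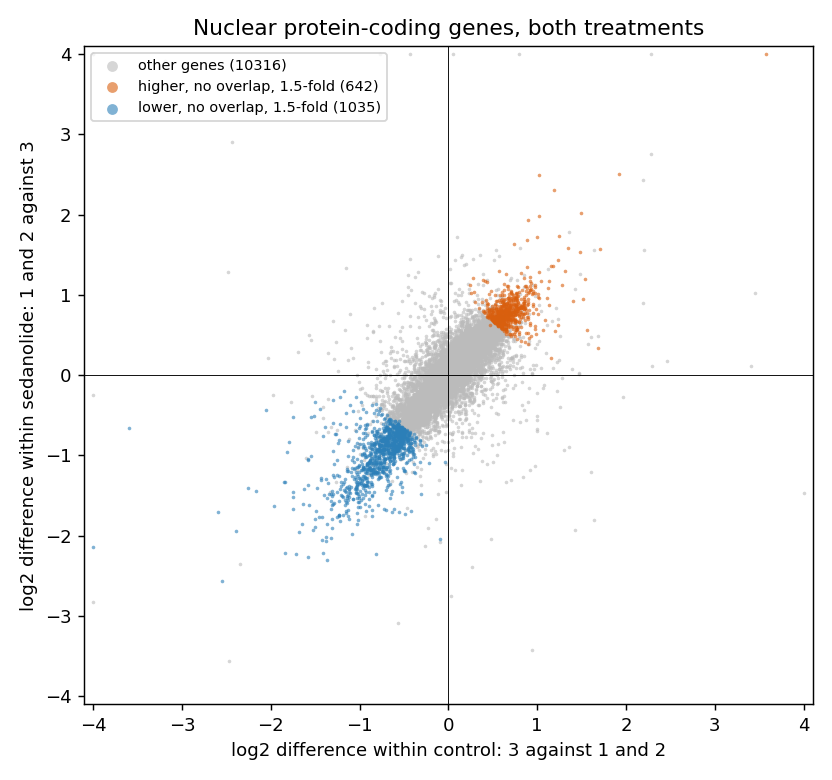
Each point is 1 of 11993 nuclear protein-coding genes, with its log2 difference within control libraries (3 against 1 and 2) on the horizontal axis and within sedanolide libraries (1 and 2 against 3) on the vertical axis, both limited to between -4 and 4. The 642 genes called higher and the 1035 called lower fill opposite corners along the diagonal. The calling rule itself places them there, since no overlap between sides fixes the same direction within both treatments.

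Whether the difference between sides itself depended on treatment was tested by a side by treatment interaction over all 14104 genes with enough counts (edgeR quasi-likelihood F test, Benjamini-Hochberg adjusted p under 0.05 and 1.5-fold). The interaction passed for 4 genes (0.0284%), and 126 genes had an unadjusted p under 0.05 (0.893%). The design left 2 residual degrees of freedom, with a single library on 1 side of each treatment, so that p-values measure only the spread between these libraries. A calibrated test without any dependence would place a share of about 0.05 of genes under an unadjusted p of 0.05. The share here was far smaller, so neither count measures how many genes depend on treatment. Of the 4 genes, 3 have exons that overlap another gene on the same strand and 1 belongs to a family of near-identical copies. Each value sets the single control 3 and sedanolide 3 libraries of their sides against pairs, so that a dependence on treatment cannot be told apart from an unusual single library.

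Nuclear-encoded complex I differed in the same direction as the mitochondrial transcripts. Of its 38 nuclear subunits, 13 were called higher and none lower, 35 had positive differences, and the median was 0.43 against 0.04 over all genes. After each library was corrected for the GC content and length of transcripts 4 of the 38 were called higher, and 5 were so in the TPM values. NDUFV1, the subunit that binds NADH and flavin, stood at 132, 96.6 and 93.6 CPM in the low-share and 213, 246 and 193 CPM in the high-share libraries. The sides did not overlap, and the difference was 1.06 ± 0.15. NDUFS6, an accessory subunit of the same electron input arm, stood at 58.4, 42.7 and 49.4 CPM in the low-share and 103, 131 and 95.3 CPM in the high-share libraries, a difference of 1.11 ± 0.16. NDUFB7 and NDUFA13 were also called higher, at 0.84 ± 0.18 and 0.80 ± 0.13. NDUFS1, the largest subunit of the complex, did not follow: it stood at 231, 234 and 238 CPM in the low-share and 234, 224 and 234 CPM in the high-share libraries, with a difference of -0.02 ± 0.08. NDUFV1 and NDUFS6 are 2 of the genes whose coding starts are printed above.

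The other respiratory complexes were less uniform. For complex II 1 of 4 subunits was called higher, SDHA, the flavoprotein that oxidizes succinate, at 183, 157 and 162 CPM in the low-share and 269, 285 and 241 CPM in the high-share libraries and a difference of 0.68 ± 0.11. A readthrough or overlapping gene shares 21.7% of the exon bases of SDHA, so that its counts are uncertain. None of the 9 nuclear subunits of complex III or the 12 of complex IV was called, with medians of 0.34 and 0.15. For complex V 1 of 18 was called higher, ATP5F1C, the central stalk subunit, at 0.62 ± 0.11, and the median was 0.22. After the GC and length correction the median of complex I was 0.25, that of complex II fell from 0.28 to 0.02 and that of complex III from 0.34 to 0.18, and those of complexes IV and V were slightly negative, at -0.05 and -0.02.

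Mitochondrial ribosomal proteins, which translate the 13 mitochondrial messages, were called higher for 15 of 78 and lower for none, with a median of 0.35. MRPL52 stood at 70.9, 64.2 and 72.0 CPM in the low-share and 114, 136 and 109 CPM in the high-share libraries, a difference of 0.76 ± 0.11, and MRPL39 at 0.72 ± 0.11. After the GC and length correction 1 of the 78 was called higher, a smaller share than the 531 of 11993 over all genes. The median was then 0.16, against 0.03 over all genes. Import and chaperone genes of the organelle were called higher for 5 of 29 (2 after the correction and 2 in the TPM values), with a median of 0.29. TIMM10, an intermembrane space chaperone for imported carriers, stood at 21.1, 19.4 and 23.9 CPM in the low-share and 38.0, 45 and 39.2 CPM in the high-share libraries, with a difference of 0.86 ± 0.10. TOMM40, the outer membrane import channel, differed by 0.64 ± 0.16. HSPD1, the matrix chaperonin, was at 2701, 2338 and 2666 CPM in the low-share and 3600, 4152 and 4045 CPM in the high-share libraries. Its 3 high-share values were above the others, but the difference of 0.57 ± 0.10 was under 1.5-fold.

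Genes that copy and transcribe mitochondrial DNA did not move as a group. Of 34, 2 were called higher and 1 lower, with a median of 0.12 that became -0.04 in the TPM table. SSBP1, the single-stranded DNA binding protein of the organelle, was called higher at 0.62 ± 0.11, and MGME1, a mitochondrial exonuclease, was called lower at -0.61 ± 0.15. POLRMT, the mitochondrial RNA polymerase, stood at 220.2, 152 and 195 CPM in the low-share and 259, 337 and 258 CPM in the high-share libraries, without overlap and with a difference of 0.54 ± 0.16, under the fold. LRPPRC, which stabilizes mitochondrial messages, differed by 0.08 ± 0.09. None of 13 regulators of mitochondrial biogenesis was called, and their median was -0.17.

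Cytosolic machinery for making, folding and degrading proteins also held many genes called higher. Of 43 proteasome genes 14 were called higher and none lower, with a median of 0.51. PSMG1, an assembly chaperone of the core particle, stood at 51.0, 40.3 and 57.0 CPM in the low-share and 91.2, 132 and 101 CPM in the high-share libraries. The sides did not overlap, and the difference was 1.01 ± 0.14. PSMG2, its partner, differed by 0.94 ± 0.13, the core subunit PSMA2, with 17.2% of its exon bases shared with another gene, by 0.86 ± 0.10 and the base ATPase PSMC3 by 0.83 ± 0.15. After the GC and length correction 9 of the 43 were called higher, with a median of 0.33, and 7 of the 43 were so in the TPM values.

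Aminoacyl-tRNA synthetases, which charge tRNAs with amino acids, had positive differences for all 20 members, and 6 were called higher, with a median of 0.48. With the GC and length correction 3 were called higher, and 2 were so in the TPM values. VARS1, the valyl enzyme, stood at 348, 212 and 336 CPM in the low-share and 458, 637 and 564 CPM in the high-share libraries, a difference of 0.77 ± 0.17. FARSA, a subunit of the phenylalanyl enzyme, differed by 0.81 ± 0.16, and its partner FARSB by 0.63 ± 0.09. IARS1, the isoleucyl enzyme, overlapped between sides, at 0.08 ± 0.09.

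Ribosome biogenesis genes were called higher for 7 of 32 and lower for none, with a median of 0.36. With the GC and length correction 4 were called higher, with a median of 0.34, and in the TPM values 3 were higher and 1 lower. BOP1, which matures large subunit rRNA, stood at 117, 74.3 and 114 CPM in the low-share and 205, 300.5 and 220.1 CPM in the high-share libraries, and its difference was 1.15 ± 0.18. PES1, its partner in the same complex, stood at 224, 169 and 205 CPM in the low-share and 307, 358 and 318 CPM in the high-share libraries, a difference of 0.68 ± 0.12. FBL, the methyltransferase of box C/D particles, differed by 0.65 ± 0.14. NCL and NPM1, abundant nucleolar proteins, were not called, at 0.04 ± 0.10 and 0.34 ± 0.11. The cytosolic ribosomal proteins themselves stayed near the middle: 1 of 81 was called higher, RPS29 at 0.88 ± 0.19, and the median of 0.08 became -0.16 after the GC and length correction and -0.10 in the TPM table.

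Cytosolic chaperones were called higher for 8 of 29 and lower for 1, with a median of 0.39. After the GC and length correction 3 were called higher, and 2 of 28 were so in the TPM values. HSPA8, the constitutive HSP70, stood at 2186, 1552 and 2012 CPM in the low-share and 2822, 3888 and 3495 CPM in the high-share libraries, a difference of 0.74 ± 0.15. The chaperonin subunits CCT2 and CCT5 differed by 0.77 ± 0.11 and 0.74 ± 0.10. HSPA1B, the stress-inducible HSP70, went the other way, at 103, 92.4 and 144 CPM in the low-share and 49.7, 49.0 and 68.9 CPM in the high-share libraries. All 3 high-share libraries were below the others, and the difference was -1.13 ± 0.14. HSPA1B has a near-identical copy beside it, so that reads may be divided between them. Translation factors were called higher for 4 of 36 and lower for 1, with EIF5B, a subunit joining factor, at 179.9, 163 and 184 CPM in the low-share and 317, 444 and 343 CPM in the high-share libraries and a difference of 0.99 ± 0.12, while EEF1A1, the elongation factor that carries tRNAs, was at -0.27 ± 0.12.

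**Figure D3:**
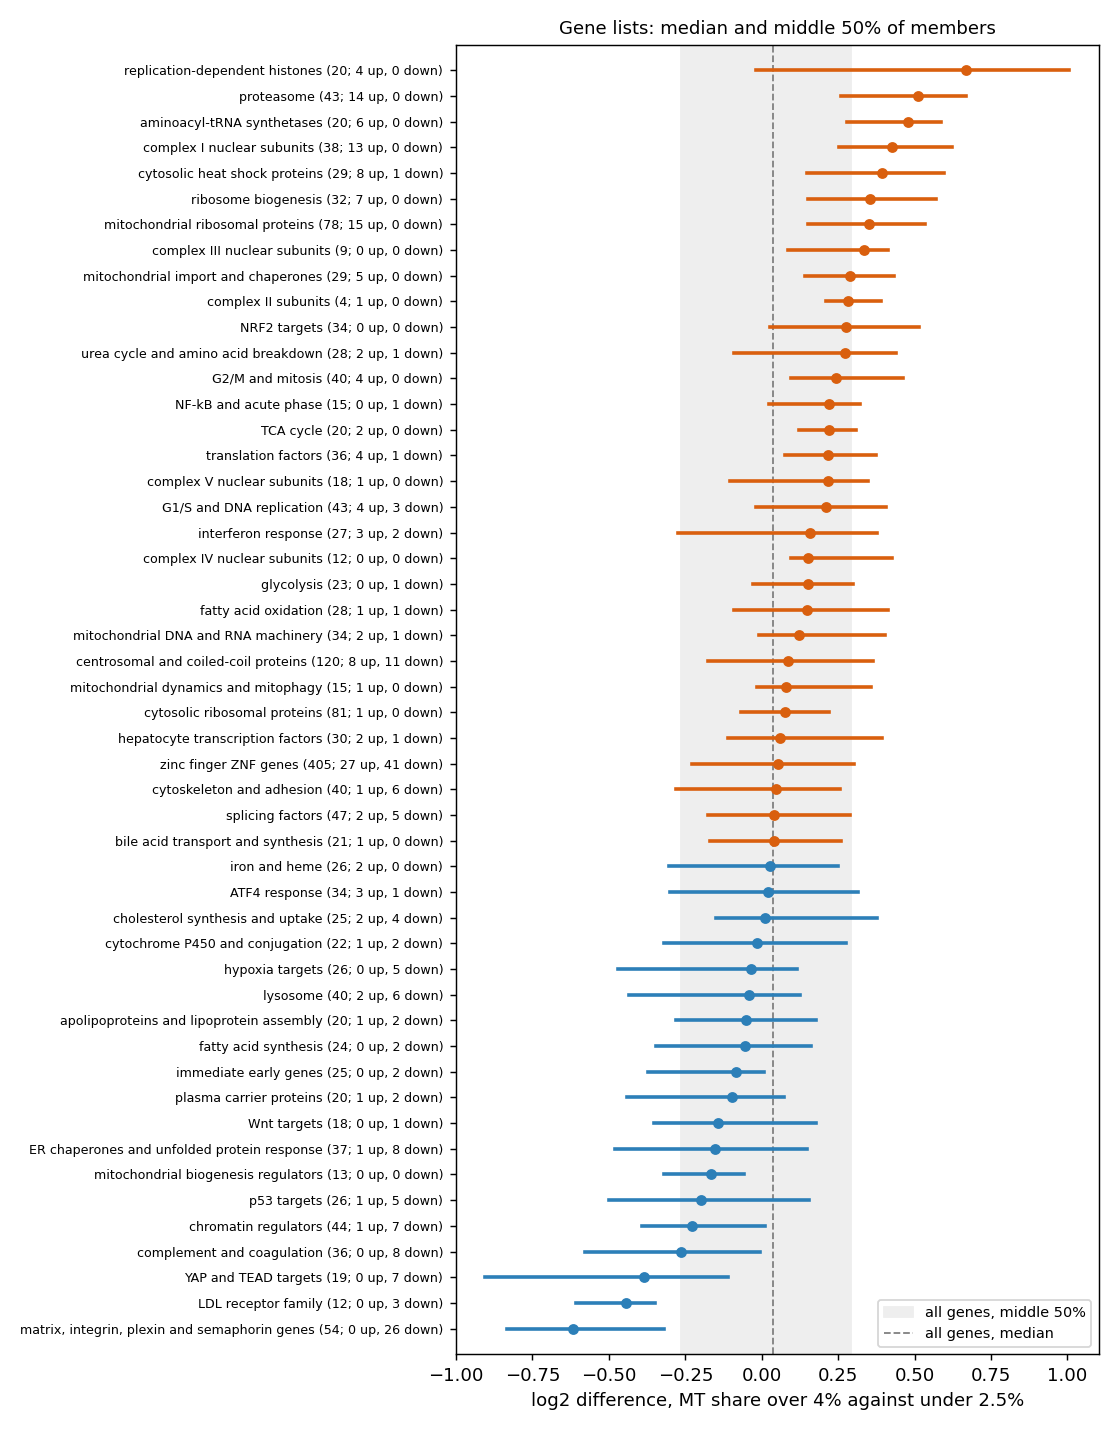
Median (point) and middle 50% (bar) of the log2 difference between sides for 50 gene lists, with the number of members tested and called beside each name, against the middle 50% (grey) and median (dashed) of all 11993 genes. Proteasome, aminoacyl-tRNA synthetase, complex I and cytosolic heat shock protein lists lie to the right of the dashed line. The matrix, LDL receptor, YAP and TEAD, complement and ER chaperone lists lie to the left.

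Among the genes called lower, matrix, integrin, plexin and semaphorin genes gave the largest share of any of the 50 lists. This list of laminins, collagens and other basement membrane genes with integrins, plexins and semaphorins was drawn up after these values were seen. Its rank among the lists therefore rests partly on that choice. Of the 47 lists not made in that way, YAP and TEAD targets had the largest share called lower, 7 of 19 (36.8%). The matrix list had 54 of 109 members with enough counts. Of these 54, 26 were called lower and none higher, with a median of -0.62. Of the 26, 12 were among the 21 laminins, collagens, nidogens, perlecan and agrin, 5 among the 12 integrins and 9 among the 21 plexins and semaphorins, which are guidance receptors and ligands. AGRN, the heparan sulfate proteoglycan agrin, stood at 187, 203 and 209 CPM in the low-share and 72.7, 40.9 and 61.5 CPM in the high-share libraries. The sides did not overlap, and the difference was -1.73 ± 0.18. LAMA5, the laminin α5 chain, stood at 157, 179 and 175 CPM in the low-share and 64.3, 34.9 and 50.3 CPM in the high-share libraries, a difference of -1.71 ± 0.17. COL7A1, the collagen of anchoring fibrils, was at -1.50 ± 0.22. LAMB1, the laminin β1 chain, was not called, at 517, 493 and 579 CPM in the low-share and 476, 487 and 502 CPM in the high-share libraries and -0.16 ± 0.09. NID1, which links laminin to type IV collagen, and ITGB1, the integrin β1 receptor, were called lower at -0.71 ± 0.12 and -0.72 ± 0.15. After the GC and length correction 13 of the 54 were called lower, with a median of -0.42, and 23 of 36 were so in the TPM values.

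Adhesion and cytoskeletal genes held several transcripts of high CPM that were called lower. FN1, the matrix protein fibronectin, stood at 14504, 18426 and 20903 CPM in the low-share and 8152, 5869 and 8382 CPM in the high-share libraries. No library of one side reached the other, and the difference was -1.28 ± 0.18. CTNNB1, β-catenin, which joins cadherins to actin and carries Wnt signals, stood at 294, 377 and 386 CPM in the low-share and 146, 86.3 and 154 CPM in the high-share libraries, a difference of -1.44 ± 0.21. ACTB, the cytoskeletal β-actin, stood at 2792, 2737 and 3346 CPM in the low-share and 1397, 1312 and 1935 CPM in the high-share libraries, with a difference of -1.01 ± 0.15, whereas its near neighbour in sequence ACTG1, γ-actin, was at 2393, 1927 and 2321 CPM in the low-share and 2352, 2636 and 2735 CPM in the high-share libraries and 0.17 ± 0.11. In the list as a whole 6 of 40 were called lower and 1 higher, and its median of 0.05 was at that of all genes, so that these genes stood apart from most of the list. Targets of the coactivator YAP and its TEAD partners were called lower for 7 of 19, with a median of -0.38. Among them CRIM1, a membrane-bound BMP regulator, stood at 215, 247 and 179.7 CPM in the low-share and 126, 63.4 and 92.7 CPM in the high-share libraries, a difference of -1.04 ± 0.15, and the tissue factor gene F3 was at -1.38 ± 0.24. CCN2, the most studied target of the pair, was not called, at -0.29 ± 0.11. After the GC and length correction 6 of the 19 YAP and TEAD targets were called lower, with a median of -0.20.

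Receptors of the LDL family, another list made after the values were seen, were called lower for 3 of 12, with a median of -0.44. With the GC and length correction 2 of the 12 were called lower, with a median of -0.27. LRP1, an endocytic receptor of hepatocytes, stood at 722, 704 and 823 CPM in the low-share and 439, 307 and 439 CPM in the high-share libraries, a difference of -0.92 ± 0.15. SORL1, a sorting receptor of the same family, was at -0.96 ± 0.15. CHRD, the secreted BMP antagonist chordin, stood at 6.91, 10.4 and 11.7 CPM in the low-share and 2.60, 3.01 and 2.97 CPM in the high-share libraries, a difference of -1.88 ± 0.19. PTPRS, a receptor tyrosine phosphatase for heparan sulfate, stood at 26.7, 32.7 and 42.2 CPM in the low-share and 11.8, 8.76 and 12.1 CPM in the high-share libraries, a difference of -1.70 ± 0.18. Both were among the 12 called genes with the largest negative differences, as were SEMA3G, a secreted semaphorin, at -1.60 ± 0.19, PCNX3 at -1.67 ± 0.22, NUDT19 at -1.59 ± 0.24 and UHRF1, the reader of hemimethylated DNA, at -1.61 ± 0.17.
For UHRF1 sedanolide 3 at 117 CPM lay far above control 1 and 2, at 57.1 and 68.1 CPM, and every high-share library lay under 40 CPM.

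Among liver products, complement and coagulation factors were called lower for 8 of 36 and higher for none, with a median of -0.26. C3, the central complement component, stood at 1908, 2156 and 1843 CPM in the low-share and 809, 488 and 695 CPM in the high-share libraries. The 2 sides did not overlap, and the difference was -1.48 ± 0.15. Another gene shares 11.7% of its exon bases. C4A and C4B, the near-identical copies of the fourth component, were at -1.22 ± 0.14 and -1.49 ± 0.17, with reads divided between them. FGG and FGB, fibrinogen chains, were not called, at 0.14 ± 0.09 and 0.12 ± 0.11. Plasma carrier proteins and apolipoproteins lay near the background shares as lists, each with 2 called lower and 1 higher of 20. Their medians were -0.10 and -0.05. AFP, the fetal albumin homologue that marks hepatoblastoma, stood at 13494, 18439 and 13262 CPM in the low-share and 7880, 4965 and 7324 CPM in the high-share libraries, a difference of -1.06 ± 0.18. APOB, the structural protein of low-density lipoprotein, stood at 12607, 13992 and 14476 CPM in the low-share and 9714, 6482 and 10110 CPM in the high-share libraries, a difference of -0.63 ± 0.17, while APOA1, of high-density lipoprotein, was called higher, at 2232, 1641 and 1587 CPM in the low-share and 2737, 2810 and 2489 CPM in the high-share libraries and 0.62 ± 0.14. SERPINA1, the α1-antitrypsin gene, was not called, at -0.11 ± 0.11.

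The ER list held both directions. Of 37 chaperone and unfolded protein response genes 8 were called lower and 1 higher, with a median of -0.15. PDIA4, a disulfide isomerase, stood at 483, 609 and 568 CPM in the low-share and 246, 141 and 253 CPM in the high-share libraries, and its difference was -1.34 ± 0.21. EDEM1, which sends misfolded glycoproteins to degradation, was at -1.05 ± 0.19, and DNAJC3, an HSP40 of the lumen, at -0.95 ± 0.19. The lumenal lectin CALR and its membrane relative CANX were not called, at 0.05 ± 0.10 and -0.19 ± 0.10. Among lysosomal genes 6 of 40 were called lower and 2 higher. PSAP, the precursor of the saposins that help sphingolipid breakdown, stood at 433, 494 and 566 CPM in the low-share and 210.0, 162 and 246 CPM in the high-share libraries, a difference of -1.31 ± 0.16, whereas the protease CTSD, which shares 22.9% of its exon bases with another gene, was at 0.04 ± 0.14.

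Inside the nucleus, splicing factors as a list lay near the background shares. Of 47 splicing factors 5 were called lower (10.6%) and 2 higher (4.26%), against 8.63% and 5.35% of all genes. The median was 0.04, as over all genes (-0.15 in the TPM table). SRSF6, an SR protein, stood at 83.7, 117 and 113 CPM in the low-share and 48.5, 35.8 and 54.4 CPM in the high-share libraries, a difference of -1.19 ± 0.18. TRA2A, a related splicing activator, was at -1.14 ± 0.16, and the RNA helicase DDX17 at -1.28 ± 0.20. HNRNPH1 stood at 217, 256 and 280.3 CPM in the low-share and 125, 88.7 and 141 CPM in the high-share libraries, with a difference of -1.10 ± 0.17. HNRNPA1, HNRNPC and HNRNPA2B1, members with the highest mean CPM, were not called, at -0.05 ± 0.10, -0.04 ± 0.09 and 0.07 ± 0.10. Chromatin regulators, whose median transcript length was 8890 bases, were called lower for 7 of 44 and higher for 1 with a median of -0.23, and after the GC and length correction 3 were lower, 3 higher and the median was 0.05. KMT2D, a histone methyltransferase, was called lower at -0.79 ± 0.14 and BPTF, a remodeller subunit, was not called, at 0.40 ± 0.09.

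The remaining genes with the largest positive differences were of several kinds. ANKRD12, an ankyrin repeat cofactor, stood at 32.1, 31.0 and 31.3 CPM in the low-share and 74.3, 100.4 and 71.2 CPM in the high-share libraries, a difference of 1.34 ± 0.14. PNRC1, a nuclear receptor coactivator, stood at 77.5, 59.1 and 43.6 CPM in the low-share and 169, 128 and 89.4 CPM in the high-share libraries, and its difference was 1.31 ± 0.16. CWF19L2 and NFKBIL1 were called higher at 1.11 ± 0.13 and 1.11 ± 0.20. ANKRD36 and ANKRD36C, which belong to a family of near-identical copies, were at 1.47 ± 0.17 and 1.66 ± 0.17, so that their counts are uncertain. ZNF581 and FKBP2 share 24.9% and 71.0% of their exon bases with another gene on the same strand, and were at 1.26 ± 0.21 and 1.16 ± 0.16. The histone gene H4C3, whose main transcript lacks a poly(A) tail, stood at 8.91, 2.80 and 4.92 CPM in the low-share and 19.0, 29.9 and 26.6 CPM in the high-share libraries, a difference of 2.13 ± 0.38. Of 69 replication-dependent histone genes 20 had enough counts, and 4 of those were called higher, with a median of 0.67 that was 0.41 without sedanolide 3 and 0.41 after the GC and length correction. G2/M genes were called higher for 4 of 40 and lower for none, with a median of 0.24. After the correction 2 of the 40 were called higher and in the TPM values 1, both near the shares of all genes there. MKI67, the proliferation antigen, was at 0.08 ± 0.11. Lists nearer the background shares were G1/S (4 higher and 3 lower of 43), hepatocyte transcription factors (2 and 1 of 30) and zinc finger genes (27 and 41 of 405). For the 34 NRF2 targets 26 differences were positive, with a median of 0.28, a middle 50% from 0.03 to 0.52 and a highest value of 1.22. Each side mixes treatments, so that a gene set apart by sedanolide overlaps between sides whatever its side difference, and no count of calls is read for this list.

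At the far end of the negative side some values came from 1 library or from shared reads. ENSG00000285976 stood at 43.4 CPM in control 1 and between 1.19 and 5.04 CPM in the other 5 libraries, with a difference of -2.47 ± 1.53, -1.25 without control 1, -0.68 without control 3 and -4.32 without sedanolide 3, and 97.8% of its exon bases are shared with PTP4A1. The NPIPA genes, a family of near-identical copies on chromosome 16, gave differences of -1.84 and -1.82 for the 2 identifiers named NPIPA9 and -1.67 ± 0.24 for NPIPA1. Exons of these genes also overlap pseudogenes on the same strand, so that the authors' counting may have divided the reads.

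**Figure D4:**
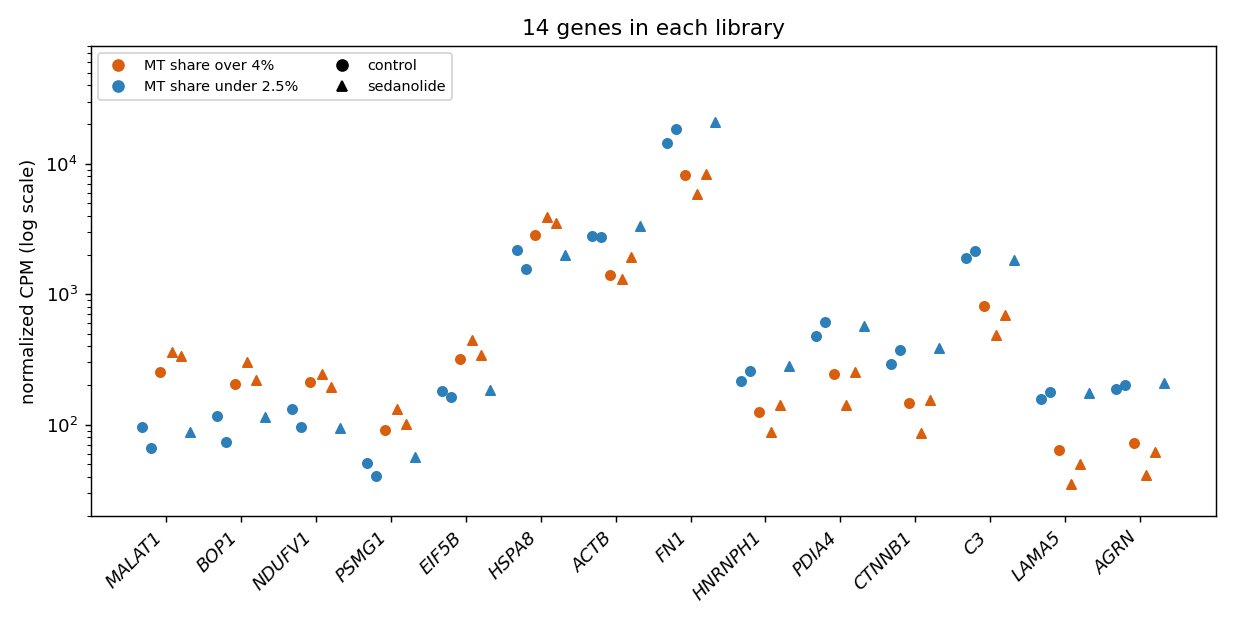
Normalized CPM (log axis) of 14 genes in each of the 6 libraries, with colour for the side and shape for the treatment. MALAT1, BOP1, NDUFV1, PSMG1, EIF5B and HSPA8 are higher in all 3 high-share libraries, and ACTB, FN1, HNRNPH1, PDIA4, CTNNB1, C3, LAMA5 and AGRN are lower in all 3.

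Gene properties that played no part in the division differed between the genes called higher and lower. Across the 11993 genes the difference ran with transcript length at Spearman rho = -0.39 and with 3′UTR length at -0.36, against -0.20 for coding length, -0.11 for exon number, 0.10 for GC content and 0.07 for mean CPM. These are descriptions across genes, and the properties are not independent of each other. With genes in 5 equal bins by transcript length, in the shortest bin, of 192 to 1805 bases, 11.5% of genes were called higher and 2.46% lower, and the median difference was 0.25. In the longest bin, of 5724 to 34626 bases, 2.13% were called higher and 15.7% lower, and the median was -0.22. By 3′UTR, the share called higher went from 13.5% in the shortest bin to 1.96% in the longest, and the share called lower from 3.92% to 13.5%. By GC content the bins ran from -0.02 to 0.12 in median. The count-weighted mean transcript length of the libraries was 4122, 4325 and 4267 bases on the low-share side and 3952, 3752 and 3940 bases on the high-share side, without overlap.

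Length did not order every gene. ACTB (1812 bases), AFP (2426 bases) and PSAP (2748 bases), all shorter than the median gene at 3288 bases, were called lower, and ANKRD12 (11284 bases) was called higher. The medians of the aminoacyl-tRNA synthetases (2705 bases at the median) and of complement and coagulation genes (2411 bases) lay on opposite sides at like lengths, at 0.48 and -0.26. A correction of each library for GC content and length kept 1074 of the 1677 calls, with 531 genes called higher and 835 lower in all.

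The coding starts printed above differed in a further property, which was looked for after the values were seen. A T-rich coding start was defined as at least 9 codons with a middle T among any 15 neighbouring codons of the 40 after the start codon. Such runs of codons for hydrophobic residues are typical of signal peptides and of membrane anchors near the N terminus, which send a protein to the ER. The pattern was found in 1189 of the tested genes (9.91%), and in 15.7% of all annotated nuclear protein-coding genes. Of these 1189 genes, 14.5% were called lower and 2.02% higher, with a median of -0.12, against 7.99% and 5.72% of the 10804 others, with a median of 0.05. Most genes called lower lacked the pattern: 172 had a T-rich start and 863 did not. Among genes called higher 24 had it and 618 did not. Within each length bin the share called lower was larger with a T-rich start, from 5.24% against 2.11% in the shortest to 22.1% against 15.1% in the longest, and it reached 24.8% against 9.98% in the bin next to the longest. A match is a feature of these letters only, and AGRN, EDEM1 and LRP1 held it, as did CALR, SERPINA1 and FGB, which were not called.

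**Figure D5:**
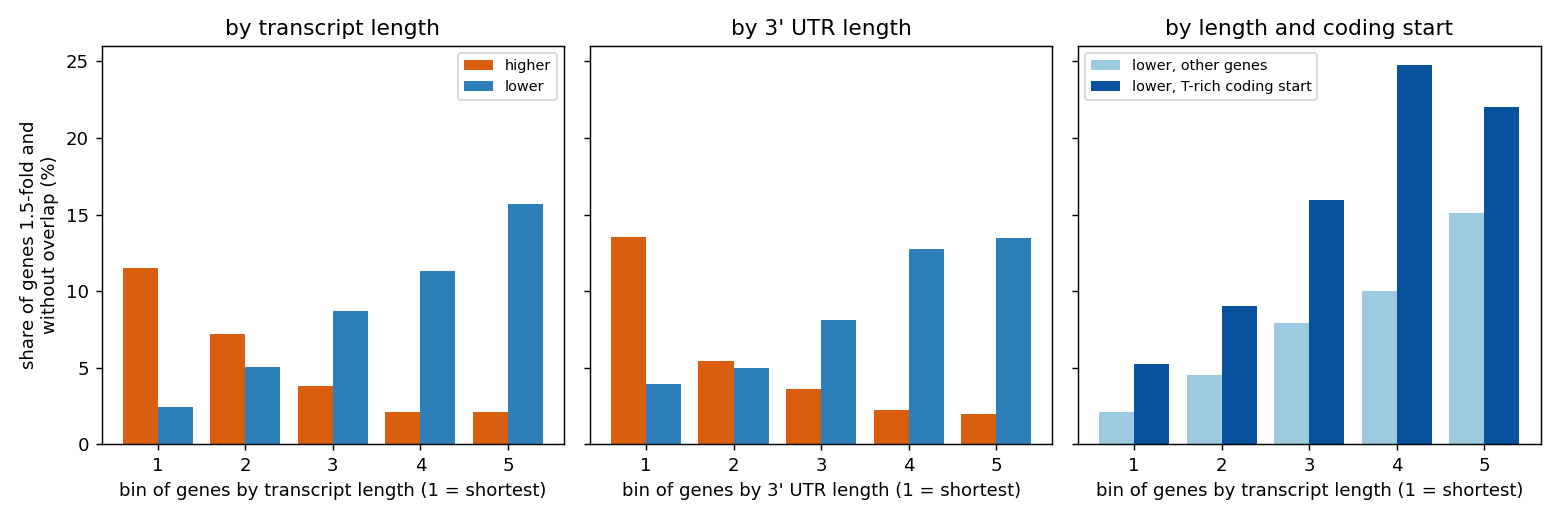
Share of genes (%) called higher or lower in 5 equal bins of genes by transcript length (left) and 3′UTR length (middle), and share called lower by length bin for genes with and without a T-rich coding start (right). The share called lower rises from 2.46% to 15.7% with transcript length, and in each bin it is larger for genes with a T-rich start.

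Markers of other cell types were read in the same libraries. Sums in this paragraph are CPM without TMM scaling. Over the 8 hepatocyte markers, the low-share libraries held 23382 to 24818 CPM and the high-share libraries 15763 to 20584 CPM, without overlap. After TMM scaling APOB, a large part of this sum, was at 12607, 13992 and 14476 CPM in the low-share libraries. In the high-share libraries APOB was at 9714, 6482 and 10110 CPM. Other members differed from it. APOA1 was called higher at 0.62, while FGB, APOA2, SERPINA1 and HNF4A were not called, at 0.12, -0.05, -0.11 and -0.32. In bulk RNA, fewer cells of a type and less RNA per cell cannot be told apart. Of the 6 fibroblast markers DCN, LUM and COL1A2 were at 0 in every library, and the sum was 11.5 to 24.6 against 5.26 to 15.2 CPM. Of the 5 endothelial markers VWF and KDR were at 0, and the sum was 3.99 to 4.69 against 4.99 to 5.30 CPM. For the 6 leukocyte markers CD3E was at 0 and the sum was 781 to 1376 against 478 to 830 CPM, and the 3 squamous markers summed to under 1 CPM. The part of these values in the difference between sides was not tested.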

How the data were processed

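Libraries were prepared from poly(A)-selected RNA with a directional kit and sequenced by the company named in the study as 150-base paired reads. Per the labels and the study's methods, the authors used FastQC for read quality, Trimmomatic for trimming, STAR for alignment to GRCh38, and RSEM for gene quantities; versions and the annotation release are not given in the sources used here. The deposited tables hold RSEM expected counts for 61543 genes and reporters, and log2(TPM + 1) values for 11006 genes. No column of another sample was present.

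Expected counts were rounded and filtered with filterByExpr, scaled by TMM and fitted with edgeR 4.0.16 (R 4.3.3) on treatment and side, with the default prior count of the fit. A prior count of 1 was used for the log2 CPM behind the differences within treatments and the GC and length correction. Since the sides were grouped by measured values, no p-value between them is used or given. Each SE was derived from the fitted difference and its quasi-likelihood F statistic. A gene was called where the fitted fold was at least 1.5 and the 3 libraries of one side lay wholly above or below the others. Test results are given for the side by treatment interaction alone. Transcript length, UTRs, GC content and coding starts came from canonical transcripts of GENCODE 44 on GRCh38; 172 identifiers were not in it.

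Members and lists were chosen with earlier results of these data known, and 3 of the 50 lists (matrix, LDL receptor, centrosomal) and the T-rich coding start were chosen after seeing these values. Named genes were the 12 called nuclear protein-coding genes with the largest difference in each direction and a mean of at least 5 CPM, and in each described list up to 4 called members with the largest difference and up to 3 with the highest mean CPM, beside the 13 mitochondrial protein genes, MT-RNR1, MT-RNR2, MALAT1, NEAT1 and the luciferases. Some items that the rule selects are not reported here. The fits were tested on simulated data. Alternatives were other scalings, filters, tools, folds, a replicate block, thinning, a GC and length correction, the TPM table and leaving out each library. Expression in all pairs of libraries differed beyond counting noise (chi-square per degree of freedom 21.0 to 202), so none was counted as a duplicate.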

Additional observations from a re-analysis of the deposited data

Results flagged for a closer look

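The side by treatment interaction passed its threshold for 4 genes (edgeR quasi-likelihood interaction test, Benjamini-Hochberg adjusted p over 14104 genes). RGPD5, a member of a family of near-identical copies, had an interaction of -4.38 on the log2 scale (adjusted p = 0.00967): it stood at 17.3, 13.3 and 29.2 CPM in control 1 to 3 and at 0.538, 0.772 and 7.37 CPM in sedanolide 1 to 3. BLOC1S5-TXNDC5, a readthrough gene that shares 87.7% of its exon bases with TXNDC5, had an interaction of 5.82 (adjusted p = 0.0150), with 0.436 CPM in sedanolide 3 and 12.5 to 23.5 CPM in the other 5 libraries. ENSG00000267303, which shares 91.5% of its exon bases with RAVER1, had an interaction of 11.09 (adjusted p = 0.0139), with 0 CPM in control 3 and 11.4 to 18.5 CPM elsewhere. ENSG00000285920, which shares 85.1% with NUSAP1, had an interaction of 14.86 (adjusted p = 0.0311), with 0 CPM in control 3 and sedanolide 3 and 0.727 to 1.39 CPM elsewhere. The fitted values of the last 2 genes rest on zeros and depend on the default prior count of the fit, so that they are no bound on a fold. Each interaction rests on the single control 3 library and the single sedanolide 3 library of their sides, so that treatment and an unusual single library cannot be told apart, and the count was 12 to 22 genes when another library was left out. RSEM divides reads between overlapping or near-identical genes, and the part of this division in the 4 values was not tested.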

How the results depend on the processing

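With a fold of 2 in place of 1.5, 43 nuclear protein-coding genes were called higher and 293 lower. In the deposited log2(TPM + 1) values, 182 genes were called higher, and with a pseudocount of 0.1 on those TPM values 207. When each library was left out in turn, the count of higher genes ranged from 483 to 990 and that of lower genes from 896 to 1323; leaving out control 1 gave 990 higher genes. Other settings kept both counts within 1.5 times the reported 642 and 1035, among them library size alone (526 and 1149), median-of-ratios size factors (575 and 1100) and the GC and length correction (531 and 835). The side by treatment interaction passed for 27 genes with no count filter, for 2 with the GC and length correction, and for 12 to 22 when a library was left out, which could be fitted only for control 1, control 2, sedanolide 1 and sedanolide 2; DESeq2 gave 5. Same-numbered libraries lay on opposite sides, and their deviations from the treatment means correlated at -0.114, -0.242 and -0.729. These values carry the difference between sides, so they cannot show whether the replicate numbers pair the libraries. A replicate block gave 642 higher and 1032 lower genes, and 1661 of the 1677 calls were kept. The T-rich coding start gave a median of -0.06 at 8 codons of 15 and -0.13 at 10. With 3 libraries a side, 1 library on one side of each treatment and no label of batch or date, the difference between sides cannot be told apart from any other property these libraries share, and the values cover these 6 libraries only.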
